A study of Mus musculus with 14 samples.

Results

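Peaks of CRTC2, NF-κB p65, and H3AcK27 were examined at 10 genes that encode NF-κB subunits or their inhibitors, out of 21866 protein-coding genes. The genes were chosen by name, not by a measured value: the subunits Rela, Relb, Rel, Nfkb1, and Nfkb2, and the inhibitors or nuclear regulators Nfkbia, Nfkbib, Nfkbie, Nfkbiz, and Bcl3. Every peak in a gene body or within 50 kb of it was collected, and a peak counted as a promoter peak when it touched the 1000 bp before a start site or the first 100 bp after it. The cells were adipocytes of 3T3-L1, a mouse preadipocyte line that forms fat cells in culture, with no altered gene named in the labels. They were left untreated (control) or exposed for 1 h to 10 µM forskolin (FSK, an activator of adenylyl cyclase), to TNFα, or to FSK and TNFα together. Each of the 12 combinations of 3 antibodies and 4 treatments was measured in a single library (n = 1), which leaves treatment differences without any replicate check, and no p-value is given. The CRTC2 antibody was an in-house reagent.

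NF-κB is a family of dimers built from RelA (p65), RelB, c-Rel, p50, and p52. In resting cells IκB proteins hold the dimers in the cytoplasm, and TNFα signaling leads to the destruction of IκBα and lets p65 enter the nucleus. Several genes of the family, Nfkbia above all, are themselves textbook NF-κB targets, which gives the pathway a feedback loop. CRTC2 is a coactivator of CREB, the factor that binds the cAMP response element (CRE), and it enters the nucleus when cAMP rises. H3AcK27 is histone H3 acetylated at a lysine of its tail, a mark of active promoters and enhancers.

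The DNA that p65 recognizes, the kB site, was searched in the reference genome (RefSeq, GRCm38). The consensus was GGG followed by a purine, any base, A or T, a pair of pyrimidines, and CC, on both strands. A kB match was found in a promoter of all 10 genes, compared with 19.7% of 21853 protein-coding genes with sequence. The 10 genes had 24 start sites, or 2.4 per gene, and all genes had 2.49 per gene. When only the promoter of the 5′-most start site was searched, an alternative added after the data were seen, 7 of the 10 genes and 13.2% of all genes held a match. The match nearest to a start site is shown for each gene in a window of 30 bases, on the strand of the gene, because these are the sites beside which the peaks are described. Capitals mark the kB match, or overlapping matches.
Rela, chr19:5637888-5637917, plus strand: ggcctgcggcGGAATCTCCCccctccccgc
Relb, chr7:19629443-19629472, minus strand: cggcggcgccGGGGAATTCCgccgccccgc
Rel, chr11:23771041-23771070, minus strand: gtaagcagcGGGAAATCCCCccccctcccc
Nfkb1, chr3:135691497-135691526, minus strand: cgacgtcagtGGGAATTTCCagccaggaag
Nfkb2, chr19:46305695-46305724, plus strand: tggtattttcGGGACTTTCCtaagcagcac
Nfkbia, chr12:55492657-55492686, minus strand: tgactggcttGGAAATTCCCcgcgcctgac
Nfkbib, chr7:28766496-28766525, minus strand: gggcgtgttGGGGAATTCCCgatagggcgg
Nfkbie, chr17:45555584-45555613, plus strand: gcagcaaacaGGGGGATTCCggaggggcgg
Nfkbiz, chr16:55838850-55838879, minus strand: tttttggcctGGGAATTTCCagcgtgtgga
Bcl3, chr7:19822734-19822763, minus strand: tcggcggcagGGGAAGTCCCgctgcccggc

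Each of the 10 matches lay within 109 bp of a start site. Nfkb2 had the most, with matches at 5 places in its promoters, and Relb and Nfkbia had 3 places each. The short CRE (TGACG) was found in a promoter of 9 of the 10 genes, the exception being Nfkbia, and in 53.8% of all genes. The full palindrome TGACGTCA was in 2 of the 10, Rel and Relb, compared with 3.99% of all genes. The AP1 motif TGANTCA, with C or G at N, was in 3 of the 10 and in 23.3% of all genes.

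The following stretches lie under p65 or CRTC2 peaks outside exons and are shown because the results below turn on them. They are read on the plus strand of GRCm38, and capitals mark kB matches and TGACG, which reads CGTCA on the other strand. For Nfkb2, whose p65 peak lies over an annotated exon, only the kB match nearest to the middle of the peak is shown.
Nfkb2, in the promoter p65 peak, chr19:46304716-46304745: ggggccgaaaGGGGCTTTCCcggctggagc
Nfkbia promoter, p65 peak with TNFα, chr12:55492664-55492826: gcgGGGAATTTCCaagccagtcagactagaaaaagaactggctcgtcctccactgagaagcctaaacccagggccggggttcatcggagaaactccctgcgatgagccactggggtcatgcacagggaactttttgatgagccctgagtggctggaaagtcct
Nfkbia downstream, p65 peak with FSK and TNFα, chr12:55464965-55465127: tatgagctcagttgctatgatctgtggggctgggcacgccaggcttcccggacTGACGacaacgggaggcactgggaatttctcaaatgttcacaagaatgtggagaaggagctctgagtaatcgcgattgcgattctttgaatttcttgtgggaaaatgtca
Nfkb1 intron, p65 peak with TNFα, chr3:135670726-135670888: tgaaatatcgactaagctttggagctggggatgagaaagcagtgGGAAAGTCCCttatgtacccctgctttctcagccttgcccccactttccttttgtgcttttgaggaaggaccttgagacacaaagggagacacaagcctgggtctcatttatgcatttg
Nfkb1 upstream, p65 peak with FSK and TNFα, chr3:135729601-135729763: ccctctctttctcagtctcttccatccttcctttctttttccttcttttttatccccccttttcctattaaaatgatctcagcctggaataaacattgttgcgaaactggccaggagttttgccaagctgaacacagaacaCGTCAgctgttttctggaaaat
Rel intron, p65 peak with FSK and TNFα, chr11:23754279-23754441: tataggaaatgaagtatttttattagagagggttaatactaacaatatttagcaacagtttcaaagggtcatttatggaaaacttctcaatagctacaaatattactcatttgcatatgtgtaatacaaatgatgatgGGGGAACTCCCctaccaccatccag
Bcl3 upstream, p65 peak with FSK and TNFα, chr7:19826953-19827115: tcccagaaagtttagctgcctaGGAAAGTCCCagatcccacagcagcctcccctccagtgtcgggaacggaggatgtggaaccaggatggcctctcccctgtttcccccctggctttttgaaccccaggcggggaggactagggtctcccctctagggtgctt
Rel promoter, CRTC2 peak with FSK, chr11:23771157-23771317: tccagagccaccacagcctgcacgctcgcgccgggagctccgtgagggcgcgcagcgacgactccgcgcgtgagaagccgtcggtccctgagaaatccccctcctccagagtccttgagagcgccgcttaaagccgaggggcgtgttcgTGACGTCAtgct

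Libraries held between 9832884 (H3AcK27 with FSK) and 31807394 tags (CRTC2 with FSK and TNFα). The p65 libraries differed in repeated tags: 69.8% of the tags of the control library were at distinct positions, compared with 18.3% with FSK, 22.7% with TNFα, and 23.9% with both. Their lists also began at different levels, since the lowest score (tags in a peak, at most 1 per position) was 12 in the control and 7 to 8 in the treated libraries, or 6.49 and 13.1 to 15.4 per 10000000 distinct tags. The part of these differences in the p65 results was not tested, and scores per distinct tag are therefore given beside the ratios of p65. The authors set control and TNFα libraries against the untreated input, and the 2 FSK-containing treatments against an input from cells given FSK. Of 8 adipocyte markers fixed for a check of the cell type, Fabp4, Lipe, Lpl, and Pparg had an acetylated promoter in each of the 4 treatments, whereas Adipoq, Cebpa, Plin1, and Cidec had none. Of 6 leukocyte markers, between 2 and 3 had an acetylated promoter, among them Cd14 in each treatment, and Ptprc, Adgre1, and Itgam had none.

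CRTC2 was listed at the promoters of most of these genes after each treatment, and p65 at fewer promoters, but at a larger share of them than of all genes in each list except that of FSK. A CRTC2 promoter peak was called at 4 of the 10 genes without treatment, 9 after FSK, 9 after TNFα, and 9 after both, compared with 11.8%, 27.4%, 39.9%, and 29.1% of all genes. All 10 promoters were acetylated in control cells, and among the 11293 genes with that property the CRTC2 shares were 22.7%, 52.7%, 76.3%, and 55.8%. With TNFα the 9 of 10 genes are thus set against a background of 76.3%. The TNFα list was the longest, and with lists of equal size the genes numbered 4, 7, 5, and 6, compared with 11.8%, 16.9%, 21.6%, and 15.9% of all genes. A p65 promoter peak was called at 1 of the 10 genes without treatment, 0 after FSK, 4 after TNFα, and 3 after both, compared with 0.0915%, 0.585%, 0.627%, and 1.01% of all genes. Among genes with an acetylated promoter these shares were 0.168%, 1.02%, 1.12%, and 1.84%. Each list was called in its own library, and a peak that is not listed may lie under the threshold.

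**Figure D1:**
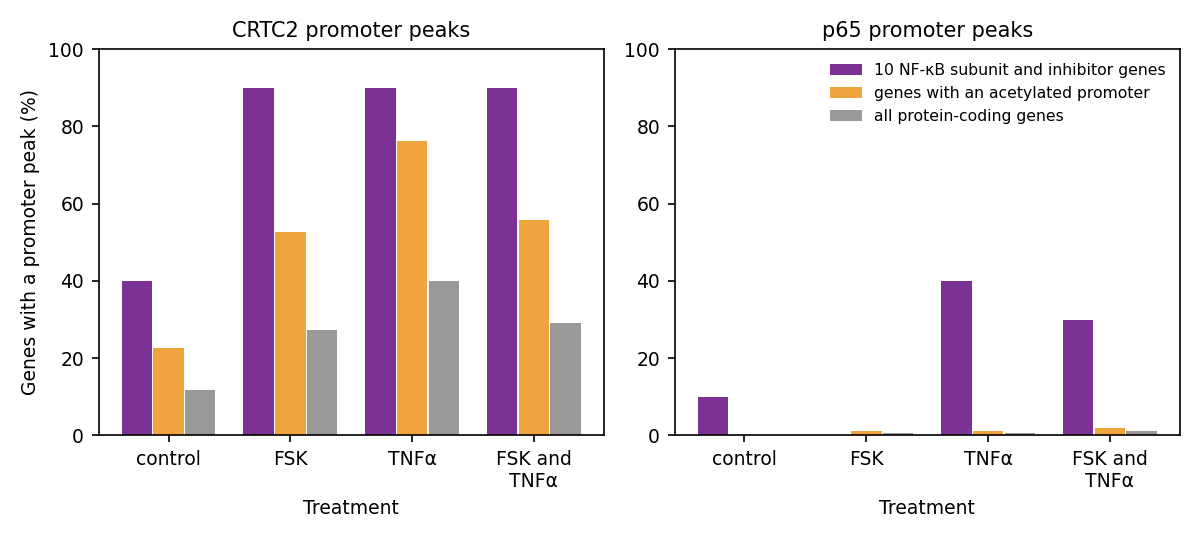
Percent of genes with at least 1 promoter peak of CRTC2 (left) or p65 (right) in each treatment, for the 10 NF-κB genes, genes with an acetylated promoter in control cells, and all protein-coding genes. For p65 the 10 genes reach 40% with TNFα and 30% with both agents, and the single control peak, at Nfkb2, gives 10%, while the bars of all genes and of genes with an acetylated promoter stay under 2%; for CRTC2 the gap to genes with an acetylated promoter is smallest with TNFα.

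Relative to control cells, a CRTC2 promoter peak was gained at 5 genes with FSK, 5 with TNFα, and 6 with both, against 17.7%, 28.5%, and 19.6% of all genes. Nfkb1, Nfkbia, Rel, and Relb were among them in each case. The share gained was not counted among genes with an acetylated promoter, a property of all 10 genes. A CRTC2 promoter peak was listed at 22.7% of such genes without treatment, and at 52.7%, 76.3%, and 55.8% after FSK, TNFα, and both. A p65 promoter peak was gained at 0 genes with FSK, 3 with TNFα (Nfkbia, Nfkbib, and Nfkbiz), and 2 with both (Nfkb1 and Nfkbiz), against 0.576%, 0.617%, and 1.01% of all genes. No p65 promoter peak was listed for Rela, Relb, Rel, Nfkbie, or Bcl3 in any library.

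**Figure D2:**
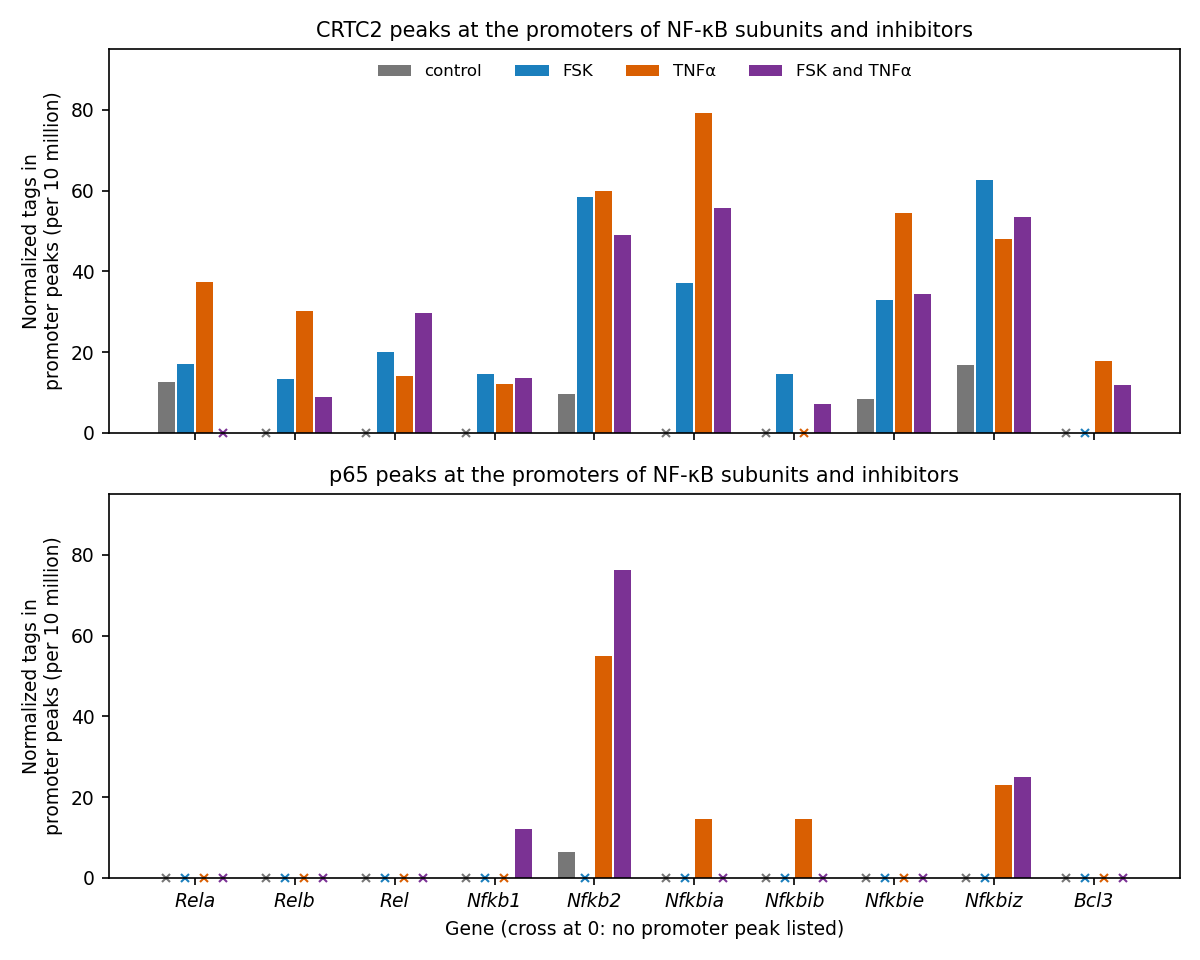
Summed normalized tags of the promoter peaks of each gene for CRTC2 (top) and p65 (bottom), with 1 bar per treatment and a cross at 0 where no promoter peak was listed. The highest CRTC2 bar is Nfkbia with TNFα (79.3) and the highest p65 bar is Nfkb2 with both agents (76.1).

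Nfkbia encodes IκBα, the inhibitor that is degraded and resynthesized in the NF-κB feedback loop. The gene (ENSMUSG00000021025) spans chr12:55489410-55492647 on the minus strand, has 1 start site, and has no other protein-coding gene within 50 kb. Its CRTC2 promoter peak was not listed in control cells and held 37.1 normalized tags with FSK, 79.3 with TNFα, and 55.6 with both (tags per 10000000 tags of the library, from 61, 210, and 177 tags). The peak middle was 92 to 115 bp downstream of the start site, inside the gene, and by score it ranked 497, 79, and 126 in the 3 lists. TNFα thus gave the highest of the 3 values: it was 2.14 times that with FSK (95% counting interval 1.60 to 2.89), and adding FSK to TNFα gave 0.701 times the TNFα value (0.571 to 0.861). As scores per distinct tag these ratios were 2.19 (1.43 to 3.41) and 0.683 (0.484 to 0.963). All intervals are exact and cover counting error only, and those of the tag ratios count repeated tags as if they were independent, whereas a score counts a position once.

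The p65 peak at the Nfkbia promoter was listed with TNFα only, with 14.5 normalized tags and a rank of 100 of 2404. It lay upstream of the CRTC2 peak, with its middle at -98 bp (negative values are upstream), and it held the kB match at -29 bp shown above, 73 bp from its middle. It was enriched 5.32-fold over input and would not pass an 8-fold threshold. With FSK and TNFα, p65 was listed instead at 3 places downstream of the gene, 18633, 24816, and 27601 bp from the start site, with 16.1, 19.5, and 33.2 normalized tags. The strongest of these ranked 40 of 4221. With TNFα alone the same place held 8.18 normalized tags, so that the value with both was 4.06 times that with TNFα alone (2.48 to 6.90, and 2.77 times, 1.21 to 6.92, per distinct tag). It was the largest difference between TNFα alone and both agents among the p65 loci of the 10 genes listed in the 2 libraries.

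CRTC2 was listed at the same downstream place, 27656 bp from the start site, where both agents together gave 31.8 normalized tags and rank 535. With FSK alone it held 17.6 normalized tags there, and with TNFα its nearest peak (11.7) lay close by, 27238 bp from the start site. It was not listed at the shared place itself in control cells or with TNFα. In the sequence of this stretch 1 TGACG and 0 exact kB matches were found. It holds gggaatttct, which departs from the kB consensus only at its last base. The search with 1 mismatch covered promoters only. A CRTC2 peak also overlapped the p65 peak at 18633 bp with both agents (11.6 and 16.1 normalized tags). CRTC2 was thus higher at the promoter of Nfkbia in each treated library, whereas p65 was higher at the promoter with TNFα and was listed only downstream with both agents.

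Nfkbie encodes IκBε, another inhibitor of the dimers. The gene (ENSMUSG00000023947) spans chr17:45555703-45563169 on the plus strand. Its CRTC2 promoter peak was listed in all 4 libraries, with 8.47 normalized tags without treatment, 32.9 after FSK, 54.4 after TNFα, and 34.3 after both. Control cells gave the lowest value and TNFα the highest. The ratios to control were 3.88 with FSK (2.19 to 7.26), 6.42 with TNFα (3.82 to 11.5), and 4.04 with both (2.38 to 7.33). Per distinct tag they were 2.29, 3.47, and 2.78, again with intervals above 1. The TNFα to FSK ratio of 1.66 (1.2 to 2.31) was 1.52 (0.936 to 2.49) per distinct tag and 0.952 as scores per library total, so the order of TNFα and FSK depended on the scaling. No p65 promoter peak was listed, although a kB match lay at -109 bp. The only p65 peak in its window was 42676 bp downstream of the start site, with 14.6 normalized tags with both agents and a score at the lowest of that list.

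At 17523 bp downstream of the Nfkbie start site, a CRTC2 locus held 21.2 normalized tags without treatment, 65.7 after FSK, 58.9 after TNFα, and 56.6 after both. The locus lies over the promoter of Hsp90ab1, a chaperone gene, and which of the genes it belongs to was not tested. A locus over the promoter of Slc35b2, at 8179 bp, held 7.94, 21.3, 26.8, and 28.0 normalized tags. At each of the 3 loci every treated library was above control.

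Nfkbib encodes IκBβ. The gene (ENSMUSG00000030595) spans chr7:28758251-28767512 on the minus strand and shares its promoter with Sirt2. CRTC2 was listed there with FSK (14.6 normalized tags) and with both (7.23), at different places (-81 and -31 bp from a start site), and not in control cells. With TNFα a CRTC2 peak of 6.80, named after its value was seen, lay in an exon, 193 bp past a start site and outside the promoter limits of Nfkbib, but over the Sirt2 promoter. With promoters taken from 2000 bp upstream to 500 bp downstream it counted, and CRTC2 with TNFα was then at 10 of the 10 genes and 42.5% of all genes. The p65 peak was listed with TNFα only, over the start site, at 14.5 normalized tags and rank 942. It also lies over the Sirt2 promoter. The 2 highest distal CRTC2 values of Nfkbib were 34.7 normalized tags with FSK at -41690 bp, over the promoter of Hnrnpl, and 29.2 with FSK at -35025 bp.

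Nfkbiz encodes IκBζ, a nuclear IκB protein that acts on transcription. The gene (ENSMUSG00000035356) spans chr16:55811375-55838899 on the minus strand and has 3 start sites. At its internal start site (55822138), CRTC2 was listed in all 4 libraries with 16.9 normalized tags without treatment, 62.7 after FSK, 48.0 after TNFα, and 44.0 after both. FSK gave the highest value, 3.70 times control (2.47 to 5.68), and ranked 123 of 11749. TNFα gave 2.83 times control (1.91 to 4.31) and both gave 2.60 times (1.76 to 3.94). At the other end of the gene p65 was listed at the first start sites with TNFα (23.0 normalized tags) and with both (24.9), and not in control or FSK cells. Their ratio was 1.08 (0.731 to 1.59), within counting error, and 1.36 (0.550 to 3.41) per distinct tag, but the 2 peaks share only 1 bp, so that it sets neighbouring stretches side by side. In the TNFα library this peak held the kB match at -15 bp shown above. A CRTC2 peak overlapped the p65 peak with both agents, and at that CRTC2 locus the values were 11.0 with FSK, 27.6 with TNFα, and 20.1 with both. A weak CRTC2 promoter peak (9.43) was also listed with both at -533 bp. So the internal start site carried CRTC2 without p65, and the 5′ end carried both.

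Bcl3 encodes a nuclear IκB protein that works with p50 and p52. The gene (ENSMUSG00000053175) spans chr7:19808462-19822770 on the minus strand. CRTC2 was listed at its promoter with TNFα (17.8 normalized tags) and with both (11.9), while FSK gave no promoter peak. In introns FSK gave CRTC2 peaks of 17.0, 19.5, 16.4, and 23.1, the last and highest 4122 bp downstream. The place of 17.0 was also listed with TNFα (16.2), and that of 19.5 with both (13.5). With FSK a p65 peak of 16.4 was listed in an intron too, 5305 bp downstream. A p65 locus upstream of the gene, at -4264 bp, was listed with TNFα (14.9) and with both (18.5), a ratio of 1.25 (0.779 to 2.0), or 1.25 (0.439 to 3.55) per distinct tag. With both agents CRTC2 was listed at that place too, with 11.0 normalized tags. The p65 peak with both agents contained 1 kB match.

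Nfkb2 encodes p100, the precursor of p52, and had the highest p65 values of the 10 genes. The gene (ENSMUSG00000025225) spans chr19:46304320-46312385 on the plus strand and has 4 start sites. A p65 promoter peak was listed with 6.41 normalized tags in control cells (17 tags), 55.0 with TNFα (148 tags), and 59.5 with both (122 tags), and was not listed with FSK. Control was far below both TNFα libraries, which did not differ beyond counting error (ratio 1.08, 0.845 to 1.38, and 1.06, 0.582 to 1.93, per distinct tag). The ratios to control were 8.58 with TNFα (5.18 to 15.1) and 9.28 with both (5.57 to 16.5), and 6.82 (3.34 to 14.8) and 7.25 (3.46 to 16.0) per distinct tag. As scores per library total, a scaling added after the data were seen, they were 2.22 and 2.48, so the direction held under each scaling but the size did not. By score the peak ranked 62 of 214, 14 of 2404, and 26 of 4221. Its middle lay at -22 to -54 bp from a start site, and each of the 3 peaks held 3 kB matches, counting overlapping matches separately. In the control library the peak was enriched 4.12-fold over input, just over the authors' threshold.

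With both agents a further p65 peak (16.6 normalized tags) lay at -210 bp from the fourth start site of Nfkb2, and a CRTC2 peak (15.1) overlapped it. CRTC2 was listed at this second promoter place in all 4 libraries, with 9.53 normalized tags without treatment, 20.7 after FSK, 18.1 after TNFα, and 15.1 after both. The ratio to control was 2.17 with FSK (1.19 to 4.08) and 1.90 with TNFα (1.09 to 3.47), and 1.58 with both (0.904 to 2.89), where the interval spans 1. Per distinct tag all 3 intervals spanned 1. At the upstream promoter place the FSK peak of CRTC2 had its middle at -27 bp from the second start site (37.7 normalized tags) and held 2 TGACG, whereas the TNFα peak (41.9) and that with both (34.0) lay 200 and 196 bp downstream of the first start site and held 0. With FSK the CRTC2 peak thus overlapped the place of the p65 peak of the other libraries. With TNFα the CRTC2 peak did not overlap it but lay close, ending at 46304598 where the p65 peak began at 46304641.

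Nfkb1 encodes p105, the precursor of p50. The gene (ENSMUSG00000028163) is the longest of the 10, spanning chr3:135584655-135691547 on the minus strand, and it had the most p65 peaks: 1 without treatment, 4 after FSK, 2 after TNFα, and 6 after both. At its promoter p65 was listed with both agents only (12.2 normalized tags), where it overlapped a CRTC2 peak (13.5) and held the kB match at 30 bp in the first exon. CRTC2 promoter values were 14.6 with FSK, 12.1 with TNFα, and 13.5 with both, and the TNFα peak lay at -403 bp, apart from the other two. In an intron, -3008 bp from an internal start site, p65 held 17.2 normalized tags with FSK, 31.2 with TNFα, and 27.8 with both. TNFα was 1.81 times FSK (1.24 to 2.68) by tags, but the ratio per distinct tag, also 1.81, had an interval that spans 1 (0.715 to 5.17). The peaks of the 2 TNFα-containing libraries held a kB match here, and the FSK peak, whose middle lay at -2869 bp, did not. A separate p65 peak of 29.3 normalized tags, listed with both agents only, lay close by at -3326 bp from the same start site. It held 0 kB matches.

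A p65 locus upstream of Nfkb1, at -38136 bp, was listed with TNFα (13.0 normalized tags) and with both (25.4), a ratio of 1.95 (1.25 to 3.09) and of 2.0 (0.852 to 4.92) per distinct tag. CRTC2 was listed there with both agents only (9.75). This stretch holds 1 TGACG and 0 exact kB matches, as does the one downstream of Nfkbia.

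**Figure D3:**
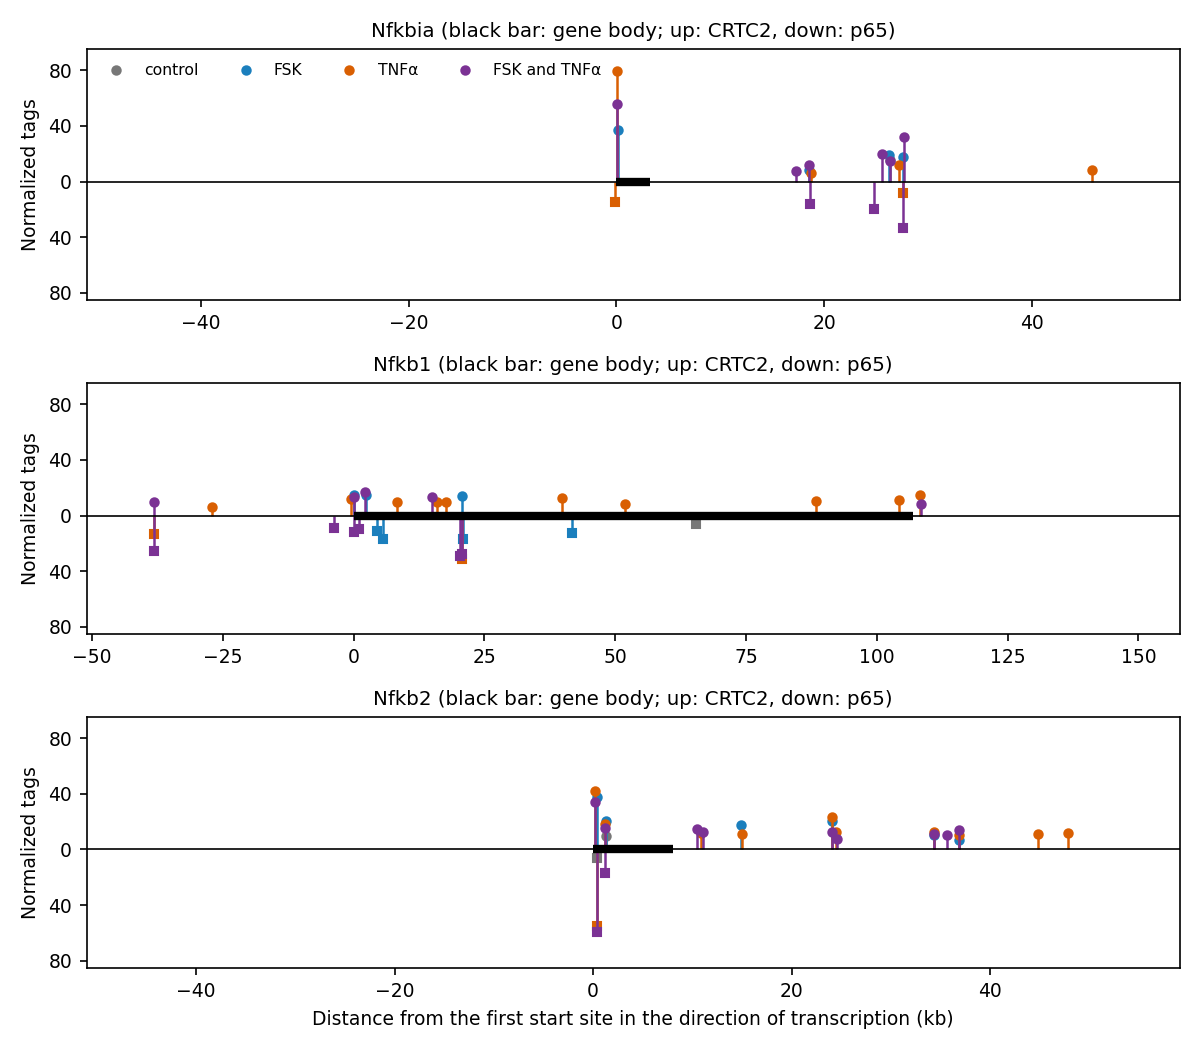
CRTC2 peaks (circles, upward) and p65 peaks (squares, downward) around Nfkbia, Nfkb1, and Nfkb2, by distance of the peak middle from the first start site (kb) and by normalized tags in each treatment. Nfkbia shows CRTC2 at its start and p65 and CRTC2 together near 27601 bp; Nfkb2 shows its p65 peaks of 55.0 and 59.5 at its start.

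Rela encodes p65 itself, and its gene (ENSMUSG00000024927) spans chr19:5637483-5648130 on the plus strand. No p65 peak was listed in its window with TNFα or with both agents. In control cells 2 exonic peaks held 7.55 and 5.66 normalized tags, and with FSK a peak over the promoter of Kat5 held 13.2. None of these lay in an acetylated region of the same treatment, but the place of the 5.66 peak lay in regions listed with TNFα and with both agents. CRTC2 at the Rela promoter held 12.7 normalized tags without treatment, 17.0 after FSK, and 37.4 after TNFα (17.0 and 20.4 in 2 peaks), and was not listed with both. At the place listed in 3 libraries the ratio to control was 1.34 with FSK (0.749 to 2.42) and 1.34 with TNFα (0.798 to 2.30), within counting error.

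Relb encodes a subunit that pairs mainly with p52. It was the only gene of the 10 without a p65 peak in any of the 4 lists, although its promoters held kB matches at 3 places. Relb (ENSMUSG00000002983) spans chr7:19606217-19629438 on the minus strand. CRTC2 at its promoter was not listed in control cells and held 13.4 normalized tags with FSK, 30.27 with TNFα in 2 peaks, and 8.80 with both. These values come from 2 places. At -179 bp CRTC2 held 13.4 with FSK and 21.2 with TNFα, and was not listed with both. At 346 bp it held 9.07 with TNFα and 8.80 with both, a ratio of both to TNFα of 0.971 (0.543 to 1.75), within counting error.

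Rel encodes c-Rel, the subunit best known from lymphocytes. The gene (ENSMUSG00000020275) spans chr11:23736847-23770970 on the minus strand. CRTC2 at its promoter was not listed in control cells and held 20.1 normalized tags with FSK, 14.0 with TNFα, and 29.6 with both, at 3 different places (-267, -465, and -207 bp). The FSK peak is the one whose sequence, shown above, holds TGACGTCA. With both agents p65 was listed in an intron 16610 bp downstream of the start site, with 24.9 normalized tags, a rank of 180, and 2 overlapping kB matches. This p65 peak lay outside the acetylated regions listed with both agents. The same place lay inside a region listed in control cells (52.2 normalized tags) and with TNFα (124.8).

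Over the whole windows, p65 was found at more of the 10 genes when TNFα was present. At least 1 p65 peak was called in the gene or within 50 kb at 3 genes without treatment, 3 after FSK, 6 after TNFα, and 7 after both, compared with 1.91%, 16.9%, 14.9%, and 22.2% of all genes. The peaks numbered 4, 6, 8, and 16. For CRTC2 the genes were 6, 10, 10, and 10, compared with 39.2%, 60.4%, 70.3%, and 64.4%, and the peaks were 10, 45, 68, and 51. With lists of equal size the CRTC2 peaks were 10, 28, 16, and 24, so that TNFα went from the highest to the lowest of the treated counts. H3AcK27 regions were called in the windows of all 10 genes in every treatment, compared with 81.0%, 78.7%, 80.8%, and 79.8% of all genes, and over all 10 promoters, compared with 51.6%, 46.9%, 51.3%, and 49.0%. Windows hold other genes, and between 5 and 24 of the CRTC2 peaks per library lay over the promoter of another gene, against 0 to 1 of the p65 peaks.

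The p65 peaks of the TNFα-treated cells lay mostly in acetylated chromatin. Of the peaks of the 10 genes, 1 of 4 without treatment, 2 of 6 after FSK, 8 of 8 after TNFα, and 14 of 16 after both overlapped an H3AcK27 region of the same treatment, compared with 17.8%, 16.1%, 39.6%, and 31.8% of all p65 peaks. In the same order such regions covered 19.2%, 15.3%, 22.3%, and 20.2% of the windows, but 4.18%, 2.67%, 4.05%, and 3.04% of the genome. The part of this difference in the overlap was not tested. The kB motif was within the peak in 1 of 4, 0 of 6, 4 of 8, and 6 of 16, compared with 1.87%, 1.65%, 12.3%, and 9.24% of all p65 peaks. With FSK alone, neither the share of all p65 peaks with a kB motif nor that in acetylated regions was above the control list. For CRTC2, TGACG was inside 1 of 4 promoter peaks of the 10 genes without treatment, 4 of 10 after FSK, 0 of 12 after TNFα, and 1 of 11 after both. Over all CRTC2 promoter peaks the shares were 20.7%, 23.9%, 18.7%, and 25.4%. A motif match describes the reference sequence only.

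Loci with overlapping CRTC2 and p65 peaks in the windows numbered 0 without treatment, 1 after FSK (in the Nfkb1 intron), 0 after TNFα, and 7 after both. The 7 loci belonged to 5 genes, 2 each to Nfkb1 and Nfkbia and 1 each to Nfkb2, Nfkbiz, and Bcl3. Overlapping peaks in such a window were called at 0.0503%, 0.864%, 1.51%, and 3.89% of all genes in the same order. The peak middles were 27 to 123 bp apart.

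The acetylated region over the first start site held more tags with TNFα than in control cells at all 10 genes. At Nfkbie, the region held 188.4 normalized tags without treatment, 187.1 after FSK, 478.8 after TNFα, and 422.5 after both. At Nfkbib the values were 137.3, 228.8, 318.2, and 362.2, and at Nfkb2 they were 366.6, 405.8, 782.4, and 803.4. Each of these genes thus had its 2 lowest values without TNFα. The TNFα to control ratio ranged from 1.43 (Bcl3) to 2.54 (Nfkbie), with a median of 1.59, compared with a median of 1.10 over 9817 genes with a region in both lists. It was over 1 at 10 of 10 genes and at 68.3% of all genes, and 5 of the 10 lay above the 95th percentile of all genes (1.63). With both agents the ratio to control was 1.31 to 2.64, over 1 at 10 of 10 genes and at 50.4% of all genes.

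FSK alone gave a different picture. Its ratio to control was over 1 at 7 of the 10 genes, against 32.1% of all genes, and ranged from 0.763 (Nfkbia) to 1.67 (Nfkbib), with a median of 1.14 and an all-gene median of 0.880. The FSK library was the shallowest for this mark. In control cells the regions of the 10 genes were larger, with medians of 3871 bp and 372 normalized tags, against 2637 bp and 179 for all genes. The median width ratio of FSK to control was 1.04 at the 10 genes and 0.856 over all genes. The part of region size in these ratios was not tested. Adding FSK to TNFα gave ratios to TNFα alone of 0.863 to 1.18, over 1 at 7 of the 10 genes and at 32.5% of all genes. Part of the TNFα difference was in the width of the region. At Nfkbia the region was 9107 bp wide in control cells and 16363 bp with TNFα, with 124 and 99.1 tags per kb, and at Relb it was 2560 and 4768 bp wide, with 67.2 and 67.4 tags per kb. At Nfkbie and Nfkbib both width and tags per kb were higher with TNFα (61.2 and 102 tags per kb at Nfkbie, 43.6 and 86.5 at Nfkbib). Per kb, the TNFα to control ratio was above the all-gene median of 1.07 at 7 of the 10 genes.

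**Figure D4:**
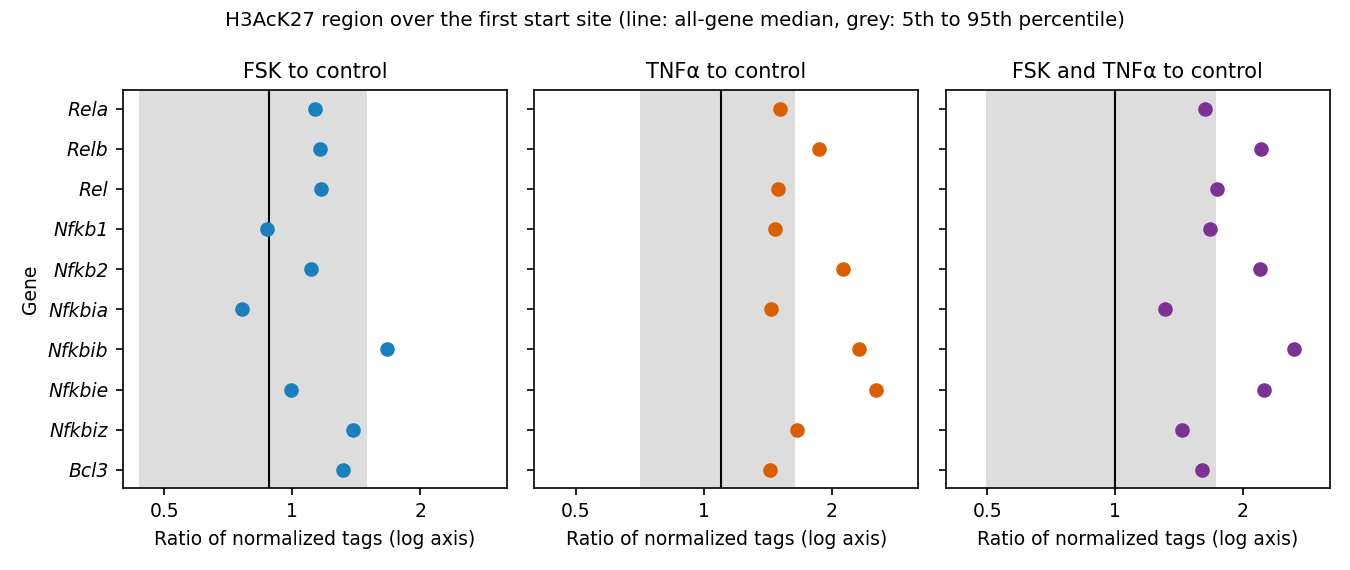
Ratio to control of the normalized tags in the H3AcK27 region over the first start site, with 1 point per gene and treatment on a log axis, the median of all genes as a line, and their 5th to 95th percentile in grey. All 10 genes lie to the right of the all-gene median with TNFα (1.10) and with both agents, and 8 of 10 do with FSK (0.880).

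The region over Bcl3 was the widest of the 10, from 17806 bp in control cells to 20174 bp with TNFα, compared with an all-gene median of 2637 and 2697 bp. Acetylated regions covered 19.2% of the 10 windows without treatment, 15.3% after FSK, 22.3% after TNFα, and 20.2% after both. In control cells the share ranged from 5.21% at Rel to 37.6% at Nfkbie, with a median of 17.3%, compared with a median of 9.81% for genes with an acetylated promoter. In each treatment 9 of the 10 windows were above that median, the exception being Rel.

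Among 20 other genes of the TNF and NF-κB pathway, from the receptor Tnfrsf1a to the kinase subunits Chuk, Ikbkb, and Ikbkg, a CRTC2 promoter peak was listed at 3 without treatment, 11 after FSK, 17 after TNFα, and 15 after both, and 18 had an acetylated promoter in control cells. These counts stand beside the 11.8%, 27.4%, 39.9%, and 29.1% of all genes and the 22.7%, 52.7%, 76.3%, and 55.8% of genes with an acetylated promoter given above. A p65 promoter peak was listed at 0, 0, 2, and 4, beside 0.0915%, 0.585%, 0.627%, and 1.01% of all genes. The p65 promoters were those of Cyld and Tnfaip3, deubiquitinases that restrain the pathway, with TNFα. With both agents they were those of Cyld, Tnfaip3, Birc3, and Traf1.

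The windows, promoters included, held 105 CRTC2 loci, of which 63 were listed in 1 library, 21 in 2, 15 in 3, and 6 in all 4, and 26 p65 loci, of which 20 were listed in 1 library. The median CRTC2 peak of the windows held 11.6, 16.4, 12.5, and 12.9 normalized tags in control, FSK, TNFα, and doubly treated cells, and that of the whole lists 10.6, 13.4, 11.3, and 11.3. Downstream of Rela, over the promoter of Sipa1 at 25712 bp, CRTC2 held 15.2 normalized tags after FSK, 29.5 after TNFα, and 8.17 after both. FSK with TNFα thus gave 0.277 times the value of TNFα alone (0.171 to 0.437), the lowest such ratio among the named loci of the 10 genes. Upstream of Nfkbib, over Hnrnpl, CRTC2 held 34.7, 22.3, and 15.7 normalized tags in the same order. At Relb the 2 highest distal loci lay over the promoters of Gemin7 (13.4, 26.8, and 9.43) and Clasrp (13.4, 23.8, and 19.8), highest after TNFα in each case by normalized tags. At Clasrp the TNFα to FSK ratio of 1.78 (1.08 to 3.03) was 1.52 (0.720 to 3.33) per distinct tag and 0.955 as scores per library total. The ratio of both agents to TNFα there, 0.832 (0.578 to 1.2), was 1.01 and 1.17 on these scalings, so TNFα was not the highest on either. At Rel an exonic locus outside the promoter limits, 264 bp from the start site, held 14.6, 20.8, and 22.3. The ratios to FSK, 1.42 with TNFα (0.866 to 2.40) and 1.53 with both (0.951 to 2.54), turned to 0.814 and 0.924 per distinct tag, so no order can be read there.

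The promoter pattern most like that of Nfkbia was that of Gxylt1, with a Pearson r of 0.9993 over the 8 CRTC2 and p65 lists on a log2(1 + normalized tags) scale, among 5148 genes with a promoter peak in at least 3 lists. Its CRTC2 values were 0 (not listed), 33.5, 79.7, and 44.65, and its p65 peak was listed with TNFα only (11.9). Nudcd1, Prcc, Minos1, and Ccdc174 followed, with r from 0.9964 to 0.9916, and they too had CRTC2 listed in the 3 treated libraries and p65 with TNFα only. Of the 8 other genes of the family that had promoter peaks in enough lists, which leaves out Bcl3, Relb came nearest (r = 0.8774, order 2143). The points of each r share libraries and depth, and 4 of the 8 values of Nfkbia are 0.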

How the data were processed

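ChIP-seq was performed on 3T3-L1 adipocytes with antibodies to CRTC2, p65, and H3AcK27 in 4 treatments, 1 library each, and 2 input libraries had no list of their own. The submitters' processing notes name mm10, STAR, and HOMER, whose versions are not given in the sources used here. Each library had its own peak calling by the authors against an input, keeping peaks at least 4-fold over it, with no pooling. Per the file headers, the deposited signal is the normalized tag count, tags in a peak scaled to 10000000 tags of the library. The deposited score counts tags with at most 1 per position, and the deposited fold is the ratio of tags in the peak to tags in the input.

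Genes and start sites were taken from GENCODE M21 protein-coding transcripts (GRCm38), and the peaks were kept in the authors' coordinates, of which 0 lay past a chromosome end. Peaks listed in several libraries were joined into loci where they overlapped by at least 1 bp. Ratios of tags per library total carry an exact 95% conditional interval (Clopper-Pearson). No test between treatments was possible with 1 library per group. Background shares count all 21866 protein-coding genes in the same way. The share among genes with an acetylated promoter, the ratios of scores per distinct tag and per library total, and the motif search at the first start site were added after the data were seen. All 10 genes were named. Named loci were promoter loci, loci with overlapping CRTC2 and p65 peaks, and the 2 distal loci per gene and factor with the highest normalized tags. The text above describes only some of the named distal and overlapping loci. The 5 genes most like Nfkbia were named by Pearson's r over 8 lists. The genes and lists were chosen with earlier results of these data known. Alternatives were an 8-fold threshold, lists of equal size, a 20 kb window, other promoter limits, peak middles within 100 bp, and 1 mismatch in the kB motif. Scripts were tested on simulated data and used Python 3.11.15, numpy 2.4.6, pandas 2.3.3, scipy 1.17.1, pysam 0.24.0, and matplotlib 3.10.9.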

Additional observations from a re-analysis of the deposited data

Results flagged for a closer look

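At 2 CRTC2 promoter loci an agent went with a higher value when given alone and with a lower value when added to the other agent. At the Nfkbie promoter, FSK alone gave 3.88 times the control tags, whereas FSK added to TNFα gave 0.63 times the TNFα tags (0.487 to 0.814). At the internal start site of Nfkbiz, TNFα alone gave 2.83 times control, whereas TNFα added to FSK gave 0.702 times FSK (0.541 to 0.915). The difference between these effects was not tested, since each rests on 1 library per treatment. As scores per distinct tag, the lower ratios were 0.801 (0.527 to 1.22) and 0.767 (0.520 to 1.13), so that both intervals spanned 1. Only loci listed in all 4 libraries of a factor could be compared in this way, and there were 6.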

How the results depend on the processing

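With a threshold of 8-fold over input, genes with a CRTC2 promoter peak numbered 2 in control cells (7.81% of all genes) and 5 with FSK (17.0%), and those with a p65 promoter peak in control cells 0 (0.0457%). CRTC2 peaks in the windows then numbered 5 (control), 24 (FSK), and 33 (both), H3AcK27 regions 42, 31, 41, and 29 in the order control, FSK, TNFα, and both, and overlapping CRTC2 and p65 loci with FSK 0. With lists of equal size, 5 genes had a CRTC2 promoter peak with TNFα (21.6%), and CRTC2 peaks in the windows numbered 28 (FSK), 16 (TNFα), and 24 (both). With 20 kb windows, CRTC2 peaks numbered 6 (control) and 42 (TNFα), and H3AcK27 regions 49, 39, 48, and 51. With the first start site only, 2 genes had a CRTC2 (9.7%) and 0 a p65 promoter peak (0.0457%) in control cells, and 2 a p65 promoter peak with TNFα (0.412%). Why these counts moved was not tested further: each alternative keeps fewer peaks, a narrower window, or fewer start sites. The other counts stayed within 1.5 times their reported value: 29 at 8-fold, 33 with equal lists, 18 with 20 kb, 10 with the first start site, and all of 12 with the wider promoter, 4 with peak middles, and 1 with a mismatch.

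Of 82 tag ratios at named loci, 39 had an interval that left out 1, and 20 of these also did as scores per distinct tag. Per distinct tag none of those 39 changed direction, while 8 of the 82, all with an interval that spanned 1, did. As scores per library total, 2 of the 39 changed direction, TNFα to FSK at the Nfkbie promoter (0.952) and downstream of Relb (0.955), and 58 of the 82 stayed within the tag interval. No paired analysis was possible because each antibody and treatment had 1 library. Peaks under a list's threshold are unseen, lists were called at different depths against 2 inputs, and intervals cover counting error only, so a difference between treatments cannot be told apart from one between libraries.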
